A study of Danio rerio with 6 samples.

Results

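The long arm of chromosome 4 held 3853 of the 66487 peaks listed for 2 histone marks in zebrafish heart tissue. The members are all peaks on chromosome 4 of the danRer10 build that start at or after base 28800000, just past the mir430 microRNA cluster. They were taken from the lists of both marks and of all 3 times, and 3852 of them have distinct coordinates. From the border to the last peak end the arm spans 47.8 Mb, which is 3.57% of the 1340 Mb spanned by peaks on the 25 chromosomes.

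The marks were trimethylation of lysine 9 of histone H3 (H3K9me3, spelled H3K9M3 in the labels) and acetylation of the same lysine (H3K9ac). The assay was ChIP-seq, in which chromatin fragments bound by an antibody are isolated and sequenced, and regions with an excess of reads, called tags, are listed as peaks. The fish were 1 to 1.5 years old, and their hearts were either uncut or taken 6 or 9 days after the tip of the ventricle had been amputated (days post amputation, dpa). The labels name no strain, transgene or mutation, and the treatment text that describes the cut is the same for every sample, the uncut ones included. Each mark and time had 1 library, so there were 6 libraries, no replicate check and no test between times. Every difference below is between libraries, not conditions. The tissue was not sorted into cell types, and the number of hearts per library and the control library are not given in the sources used here. In such bulk tissue, fewer cells of a type and less signal per cell cannot be told apart.

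In zebrafish the long arm of chromosome 4 is known as a mostly heterochromatic, repeat-rich region with few ordinary protein-coding genes and large clusters of related genes, many of them for zinc finger proteins and NLR-type immune receptors with a NACHT domain. H3K9me3 is bound by heterochromatin proteins and marks silent chromatin, above all repeats and zinc finger gene clusters. H3K9ac is laid down by acetyltransferases at promoters and enhancers that are in use.

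The background of the libraries differed, and their read totals are not given in the sources used here. Values are given throughout in the order uncut, 6 dpa, 9 dpa. The background read density recovered from the lists stood at 4.10, 10.83 and 9.24 reads per kb for H3K9me3 and at 14.63, 11.25 and 15.01 for H3K9ac. The heart label was checked on promoters within 2 kb of a transcription start site (TSS). H3K9ac peaks lay at 10, 8 and 10 of 15 heart muscle markers, at 2, 1 and 2 of 5 endothelial markers, at 5, 5 and 5 of 6 red cell markers and at 0, 1 and 0 of 6 leukocyte markers. Of these markers the lists named 10, 3, 6 and 1, so the leukocyte count rests on 1 gene. No H3K9ac peak lay at the skeletal muscle, liver, pancreas, brain or germline markers, most of which no list names.

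H3K9me3 peaks were dense on the arm. The lists placed 465, 731 and 561 H3K9me3 peaks there, which was 10.4% (95% Wilson interval 9.50 to 11.3), 11.8% (10.98 to 12.6) and 11.8% (10.9 to 12.7) of all peaks of the mark. All intervals, except those of medians, cover counting error only, and peaks of a library share their source. The arm carried 9.73, 15.3 and 11.7 H3K9me3 peaks per Mb. The remainder of chromosome 4 and the other 24 chromosomes carried 2.40 to 3.85, 3.29 to 5.48 and 2.35 to 4.51 per Mb, so the arm was above every chromosome in each library. Its density was 3.12 times that outside the arm in the uncut library (95% interval 2.84 to 3.44), 3.60 times at 6 dpa (3.34 to 3.89) and 3.60 times at 9 dpa (3.30 to 3.93).

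Counted over all peaks, promoter peaks included, H3K9ac did not share that excess. The arm held 739, 640 and 717 H3K9ac peaks, which was 4.54%, 3.65% and 4.16% of the mark's lists. Per Mb these were 15.5, 13.4 and 15 peaks, and the density ratio to the outside was 1.29 (1.20 to 1.39), 1.02 (0.947 to 1.11) and 1.17 (1.09 to 1.27). Among peaks with a score of at least 100 the ratio was below 1 at all times, at 0.907, 0.674 and 0.800, so the direction for H3K9ac depended on the weak peaks. These ratios include promoter peaks, which are rarer on the arm. Without them 691, 598 and 671 H3K9ac peaks remained on the arm and 7823, 8730 and 8545 outside. The arm thus held a larger share of H3K9ac peaks away from promoters than of all H3K9ac peaks, and a density ratio for them was not computed.

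**Figure D1:**
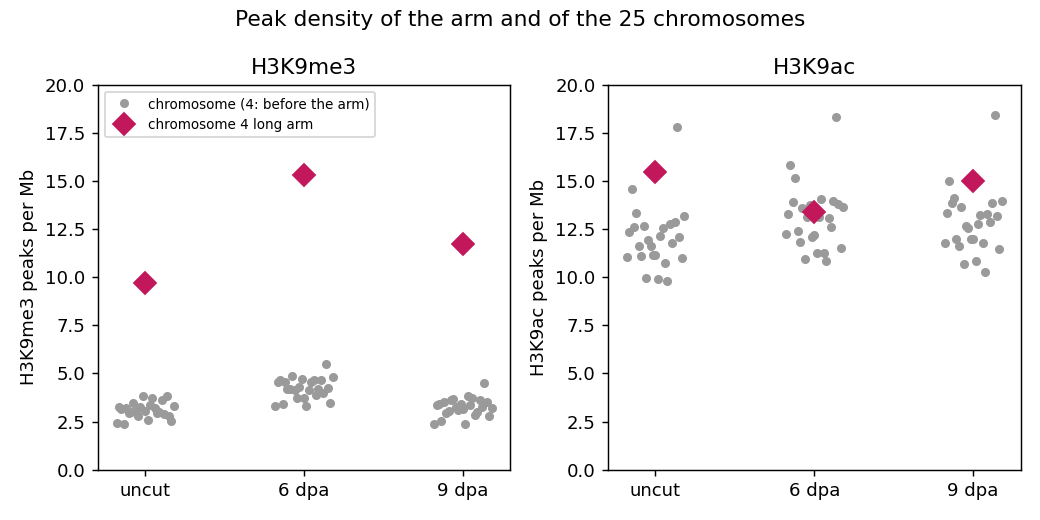
Peaks per Mb of H3K9me3 (left) and H3K9ac (right) in the uncut, 6 dpa and 9 dpa libraries; grey points are the 25 chromosomes, with chromosome 4 counted before the arm, and diamonds are the long arm. The arm stands above all chromosomes for H3K9me3, at 9.73, 15.3 and 11.7 peaks per Mb, and within their range for H3K9ac. Promoter peaks, which are rarer on the arm, are counted for both marks.

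The shape of the peaks also separated the marks. Arm H3K9ac peaks had a median width of 1120, 1126 and 1132 bp against 1486, 1492 and 1542 bp outside, and a median of 55, 48 and 56 tags against 97, 92 and 106. The share with a score of at least 100 was 47.5%, 45.6% and 47.0% on the arm and 67.4%, 69.4% and 69.0% outside. Acetylation peaks of the arm were thus narrower than those elsewhere, with fewer tags and lower scores. Their median fold enrichment was close to that outside, at 6.22, 7.08 and 6.22 against 6.15, 7.44 and 6.42. These comparisons were not repeated without promoter peaks, which are rarer on the arm. H3K9me3 peaks were close to the rest of the genome in size, with median widths of 1020, 915 and 912 bp on the arm and 924, 900 and 922 bp outside.

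Along the arm, H3K9me3 was broad and without a single centre. In 47 full 1 Mb bins the median was 10, 15 and 12 H3K9me3 peaks. The fewest, 3, 3 and 1, were in the bin from 29 Mb, next to the border. The most were 19 in the bins from 35 and 58 Mb (uncut), 27 from 41 Mb (6 dpa) and 20 from 42 and 58 Mb (9 dpa). H3K9ac had a median of 14, 12 and 14 peaks per bin and reached its maximum of 33, 30 and 33 in the bin from 71 Mb, which the bin from 75 Mb equalled at 6 dpa. Across the 47 bins the marks' counts had a Pearson r of -0.17, -0.24 and -0.00 and a Spearman rho of -0.09, -0.05 and 0.13. These are given as a description, since neighbouring bins share libraries and sequence content.

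The arm fell into zones that were drawn after these counts were seen: a first part before 30 Mb, an interior from 30 to 70 Mb and a distal part from 70 Mb on. The distal part carried 23.6, 23.8 and 23.3 H3K9ac peaks per Mb and the interior 14.0, 11.5 and 13.5. For H3K9me3 the order was the opposite, with 8.03, 11.5 and 9.54 peaks per Mb in the distal part and 10.2, 16.3 and 12.4 in the interior. The distal part is also where most named genes lie: 39 of the 61 genes of the arm start there and 22 before it. Within 2 kb of a TSS lay 20.5%, 20.4% and 20.8% of the distal H3K9ac peaks and 2.51%, 1.74% and 2.23% of the interior ones.

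**Figure D2:**
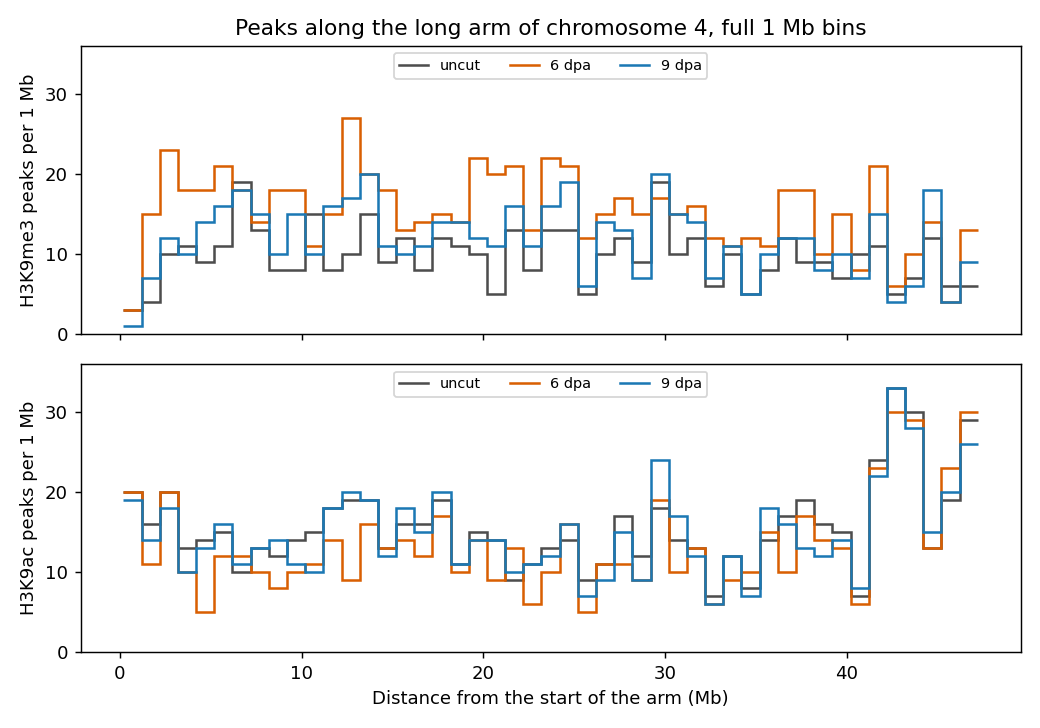
Number of H3K9me3 peaks (top) and H3K9ac peaks (bottom) in each full 1 Mb bin, by distance in Mb from the start of the arm, with 1 line per library. H3K9me3 is lowest beside the border (3, 3 and 1 peaks), and H3K9ac is highest near the distal end (33, 30 and 33 peaks).

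The peaks nearest to the border come from different libraries and are given without a comparison. The last H3K9me3 peak before it, chr4:28749459-28755535 at 6 dpa, had 2120 tags, a fold enrichment of 4.27 and lay 6.08 kb from mir430a-11. The first after it, chr4:28915913-28916902 in the uncut library, had 81 tags and a fold enrichment of 8.8. For H3K9ac the last peak before the border was chr4:28790655-28791505 at 6 dpa with 28 tags, and the first after it was chr4:28859979-28861110 in the uncut library with 84 tags, at the promoter of wu:fb11h05. The widest stretches of the arm without a peak were 452 kb for H3K9me3 (chr4:74238199-74690162, in the distal part) and 436 kb for H3K9ac (chr4:36127688-36563560, in the interior).

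Most arm peaks had no annotated gene. The lists named no gene for 85.8%, 87.7% and 85.4% of the arm H3K9me3 peaks and for 84.3%, 84.5% and 84.5% of the arm H3K9ac peaks, while the shares outside the arm were 72.9%, 70.5% and 73.6% for H3K9me3 and 42.8%, 43.0% and 43.1% for H3K9ac. The lists, which name only genes near a peak, gave 1.28 TSS per Mb on the arm and 7.92 in the rest of the genome. In all, 48, 42 and 46 arm H3K9ac peaks lay within 2 kb of a TSS, which was 6.495%, 6.56% and 6.42% of them against 49.6%, 48.3% and 48.2% outside. Over all H3K9ac peaks the shares were 47.7%, 46.8% and 46.5%. For H3K9me3, 3, 6 and 6 arm peaks lay at promoters, or 0.645%, 0.821% and 1.07%, beside 2.99%, 5.98% and 2.6% of all H3K9me3 peaks.

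A site among the most enriched of the arm carried both marks. At chr4:61790526-61792964, 162 kb from the TSS of zgc:123060, H3K9me3 peaks had 495, 570 and 569 tags and the authors' fold enrichments were 26.3, 24.2 and 24.6. The H3K9ac peaks at the same place had 459, 416 and 430 tags and fold enrichments of 25.3, 26.5 and 25.9. All 6 libraries had a peak there with a similar fold in the authors' measure. As tags per kb over the library background, the values were 59.9, 26.4 and 29.8 for H3K9me3 and 19.6, 32.9 and 19.6 for H3K9ac, which were further apart. No control library was analysed here.

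Further peaks with high enrichment differed in the mark they carried. The promoter of LOC560084, annotated as a protein with a NACHT domain, had 59, 101 and 86 H3K9me3 tags and 102, 104 and 100 H3K9ac tags (chr4:30294383-30295524). The site chr4:53097563-53100171 was an H3K9me3 site with 120, 216 and 136 tags, and it had 95, 89 and 99 H3K9ac tags. The site chr4:49276938-49277843 had 23, 43 and 35 H3K9me3 tags, and an H3K9ac peak of 26 tags at 6 dpa alone. Some strong H3K9ac sites had no H3K9me3 peak at any time. Among them, chr4:74290954-74292351 had 154, 181 and 158 H3K9ac tags, and chr4:69493911-69495222 had 98, 112 and 119. Others had few H3K9me3 tags, such as chr4:44421242-44422541 with 131, 103 and 123 H3K9ac tags and 16, 26 and 22 H3K9me3 tags. Its H3K9me3 fold enrichments were still 10.09, 6.42 and 7.11, beside medians of 8.73, 6.23 and 6.63 over arm H3K9me3 peaks. None of these intergenic sites lay within 100 kb of a TSS named in the lists.

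For H3K9me3, recurrence on the arm was close to that elsewhere. Of the 465 uncut peaks, 290 overlapped a 6 dpa peak by at least 1 bp, or 62.4% against 56.5% outside the arm, a difference of 5.89 percentage points (95% Newcombe interval 1.15 to 10.4), with 57.1% over all peaks. At 9 dpa 276 recurred, or 59.4% against 52.3%, a difference of 7.06 points (2.28 to 11.7), with 53% over all peaks. With both lists kept to a score of at least 100 the differences were -2.78 points (-11.2 to 4.93) and -6.92 points (-15.5 to 1.28), so the direction depended on the score limit and the intervals then included 0. In the other direction, 39.4% of the 6 dpa arm peaks overlapped an uncut peak against 41.5% outside (41.2% over all), and 49.2% of the 9 dpa arm peaks did against 50.05% (49.9% over all). Between the later times, 50.6% of the 6 dpa arm peaks recurred at 9 dpa (48.9% outside, 49.1% over all) and 66.5% of the 9 dpa arm peaks at 6 dpa (63.5% outside, 63.8% over all). The intervals of these 4 differences included 0. The 6 dpa list was the longest and its library had the highest background among the H3K9me3 libraries, and the part of depth in these shares was not tested.

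Arm H3K9ac peaks came back less often than those elsewhere. Of the 739 uncut peaks, 483 overlapped a 6 dpa peak, or 65.4% against 86.8% outside, a difference of -21.5 points (-25.0 to -18.1), with 85.8% over all peaks. At 9 dpa 529 recurred, or 71.6% against 88.7%, a difference of -17.1 points (-20.5 to -13.9), with 87.9% over all peaks. Since promoter peaks recur more often and are rare on the arm, the comparison was repeated without the uncut promoter peaks: the differences were then -12.8 points (-16.5 to -9.14) and -10.2 points (-13.8 to -6.82). At 6 dpa the gap was present in each class of score. Of weak uncut peaks with a score from 50 to 75, 37.2% of 253 on the arm and 56.7% of 3087 outside recurred at 6 dpa. Of peaks with a score from 100 to 200, 82.5% of 217 and 95.01% of 5134 did. At a score of 200 or more the shares were 96.3% of 134 and 99.4% of 5327. Recurrence at 9 dpa in that class was close, at 99.25% on the arm and 99.85% outside.

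Counted from the later lists back to the uncut list, the H3K9ac gap was smaller. Of the 6 dpa arm peaks 74.7% overlapped an uncut peak against 79.9% outside (79.7% over all), and 74.1% of the 9 dpa arm peaks did against 83.3% (82.9% over all). Without promoter peaks the differences of these shares were 4.54 points (0.726 to 8.07) and -0.97 points (-4.59 to 2.40). Between 6 and 9 dpa, 75% of the 6 dpa arm peaks recurred at 9 dpa (83.7% outside, 83.4% over all) and 67.2% of the 9 dpa arm peaks at 6 dpa (85.5% outside, 84.7% over all). Without promoter peaks the differences of these were 0.133 points (-3.64 to 3.62) and -9.29 points (-13.1 to -5.68). Shares into the 6 dpa list were thus the lowest on the arm. That library had the lowest H3K9ac background, 11.25 reads per kb, and the longest H3K9ac list, 17525 peaks. The part of depth was not tested.

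The lower recurrence of H3K9ac was found in the interior. There 58.6% of 558 uncut peaks overlapped a 6 dpa peak, while 86.5% of 156 in the distal part did, a difference of -27.9 points (-34.0 to -20.5). At 9 dpa the shares were 66.7% and 86.5%, a difference of -19.9 points (-25.9 to -12.6). The first part, with 25 uncut peaks, had 84.0% at 6 dpa. Distal H3K9ac peaks also had more tags, with a median of 78 in the uncut library against 50 in the interior, and the part of this in the difference was not tested.

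Merging overlapping peaks of the 3 lists of a mark gave 1054 H3K9me3 sites and 1027 H3K9ac sites on the arm. Of the H3K9me3 sites 234 (22.2%) were present at all times, beside 21.2% outside and 21.3% over all sites. Of the H3K9ac sites 428 (41.7%, interval 38.7 to 44.7) were present at all times, beside 62.9% outside and 61.8% over all. A single time accounted for 596 of the H3K9me3 sites and 409 of the H3K9ac sites. For H3K9me3 the uncut, 6 dpa and 9 dpa lists alone had 13.0%, 29.3% and 14.2% of the arm sites. Outside the arm these shares were 17.2%, 27.6% and 14.6%. For H3K9ac 159 of the single-time sites were in the uncut list alone, 15.5% of the arm sites against 5.40% outside. The 9 dpa list alone had 137 (13.3% against 7.18%), and the 6 dpa list alone 113 (11.003% against 10.3%).

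Both marks met more often on the arm than elsewhere when counted from acetylation. Arm H3K9ac peaks that overlapped an H3K9me3 peak of the same time numbered 149 (20.2%), 244 (38.1%) and 216 (30.1%). Outside the arm the shares were 8.46%, 13.3% and 11.4%, and over all H3K9ac peaks they were 8.99%, 14.2% and 12.1%. The differences were 11.7 points (8.93 to 14.8), 24.8 points (21.1 to 28.7) and 18.8 points (15.5 to 22.3). Without promoter peaks they were 5.48, 18.4 and 10.7 points. The H3K9me3 density on the arm, 3.12 to 3.60 times that outside, also sets how often another peak meets it, and its part in these shares was not tested.

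Counted from H3K9me3, the arm did not stand above the rest. Arm H3K9me3 peaks with an H3K9ac peak of the same time numbered 150 (32.3%), 242 (33.1%) and 213 (38.0%), against 32.6%, 41.2% and 44.6% outside and 32.6%, 40.2% and 43.8% over all. The differences were -0.33 points (-4.67 to 4.28), -8.06 points (-11.6 to -4.34) and -6.64 points (-10.8 to -2.29). H3K9ac peaks met H3K9me3 more often in the interior than in the distal part, by an amount that varied with time. In the uncut library the shares were 22.8% of 558 and 12.8% of 156, a difference of 9.94 points (2.96 to 15.6). At 6 dpa they were 47.4% of 460 and 15.3% of 157, a difference of 32.1 points (24.2 to 38.7), and at 9 dpa 35.99% of 539 and 13.6% of 154, a difference of 22.4 points (14.9 to 28.5).

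**Figure D3:**
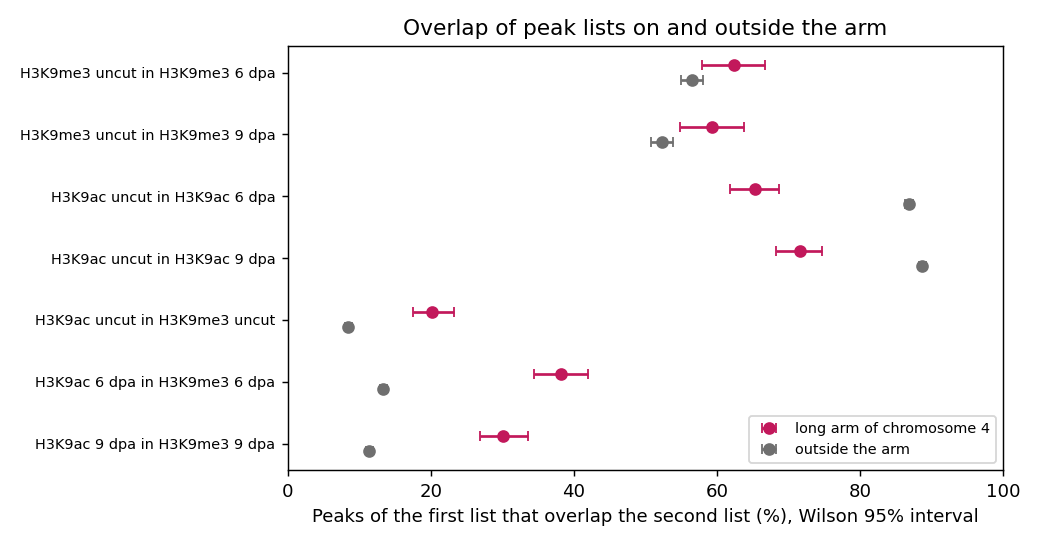
Share in percent of the peaks of a first list that overlap a second list by at least 1 bp, on the long arm and outside it, with 95% Wilson intervals. The upper 4 rows follow uncut peaks into later lists of the same mark, where the arm is at 65.4% and 71.6% for H3K9ac against 86.8% and 88.7%; the lower 3 rows give H3K9ac peaks that meet H3K9me3, where the arm is higher at all times (20.2%, 38.1% and 30.1%).

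Over all 6 lists the arm held 1674 merged sites. Of these 653 carried H3K9me3 alone, 624 H3K9ac alone and 397 both marks, or 23.7% (21.7 to 25.8) against 14.3% (13.9 to 14.7) outside. A peak in each of the 6 lists was found at 101 arm sites (6.03%) beside 3.45% outside and 3.61% over all sites. At the 101 sites tags of the marks ranked alike, with a Spearman rho of 0.72, 0.85 and 0.86; over 866 such sites outside the arm it was 0.76, 0.86 and 0.85. These are descriptions across sites that share libraries. The tags were not divided by site width, and the widest sites had many tags of both marks. The parts of width and of local background in these values were not tested.

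The widest sites with both marks at all times were several kb wide. The widest overlap was 7948 bp at chr4:39703472-39711529, which had 1272, 2137 and 1504 H3K9me3 tags and 1010, 956 and 998 H3K9ac tags. Despite these tag counts the fold enrichments were low, from 2.7 to 2.87 for H3K9me3 and from 2.91 to 3.4 for H3K9ac. The local background recovered for single arm peaks reached 129, 221 and 173 reads per kb for H3K9me3 and 107, 99.5 and 112 for H3K9ac. The library backgrounds were 4.10 to 15.01. The part of local background in the tags of wide sites was not tested. The next, chr4:41346465-41353465, overlapped by 6606 bp with 1091, 1962 and 1676 H3K9me3 tags and 713, 860 and 1060 H3K9ac tags. Another, chr4:40796201-40802438, lay inside zgc:174650, 371 kb from its TSS, with 343, 826 and 639 H3K9me3 tags and 352, 379 and 279 H3K9ac tags. Further wide sites were chr4:71197315-71203108 with an overlap of 5745 bp and chr4:53178951-53185333 with 5185 bp. Over the 102 pairs of such sites the median overlap was 1444.5 bp.

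Tags at sites present at all times were compared next, as tags per kb divided by the library background, on a log2 scale and against the uncut library. A site was counted as lower or higher when its change, relative to the median of all sites, exceeded its 95% counting interval. At H3K9ac sites the median log2 change at 6 dpa was 0.13 on the arm and 0.42 outside, or -0.28 and 0.01 relative to the median of all sites. Of the 428 arm sites 106 were lower (24.8%, interval 20.9 to 29.1) beside 7.65% outside and 8.2% over all sites, a difference of 17.1 points (13.2 to 21.4). Only 7 were higher (1.64%), beside 11.5% over all sites. Relative to sites elsewhere, acetylation on the arm was therefore lower in the 6 dpa library.

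At 9 dpa the arm was closer to the rest. Its median log2 change was -0.03 against 0.10 outside, or -0.12 relative to all sites. Lower sites numbered 32 (7.48%, with 4.8% over all) and higher sites 7 (1.64%, with 5.09% over all). The difference in the share of lower sites was 2.77 points (0.606 to 5.68).

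The lower relative H3K9ac at 6 dpa was seen in several subsets drawn after the values were seen. Without subtracting the median of all sites, the arm medians were positive: 0.08 in the interior, 0.29 in the distal part and 0.11 away from promoters. In the interior the median relative change was -0.33 with 81 of 281 sites lower, and in the distal part it was -0.13 with 20 of 128. Away from promoters it was -0.30 on the arm and -0.05 outside. Arm sites had less enrichment, a median of 3.92 times the background in the uncut library against 4.62, so sites were also split by the mean enrichment of both libraries. Between 3 and 4 times the background, the median was -0.34 at 191 arm sites and -0.19 at 2366 sites outside. Between 4 and 5 times it was -0.24 at 88 and -0.07 at 2745, and at 5 times or more it was -0.15 at 110 and 0.10 at 7292. The last class has no upper limit, so levels within it were not matched. Below 3 times it was -0.31 at 39 arm sites and -0.30 at 348 outside, where the medians were close.

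For H3K9me3 per kb, arm and outside medians were close. The median log2 change at 6 dpa was -0.58 on the arm and -0.58 outside, and at 9 dpa -0.56 in both places. At 6 dpa 18 of 234 arm sites were lower and 12 higher, beside 9.27% lower and 6.19% higher over all sites. At 9 dpa 20 were lower and 17 higher, beside 8.67% and 6.74%. The negative medians depend on the scaling to background: scaled to the tags per kb of peaks outside the arm, the arm medians were 0.09 and 0.00 for H3K9me3 and -0.16 at 6 dpa for H3K9ac. The arm minus outside difference cannot change between these scalings, since each is 1 factor per library and cancels. It did change without division by peak width. H3K9me3 on the arm then differed from outside by -0.11 at 9 dpa (-0.19 to -0.054) and by -0.053 at 6 dpa (-0.14 to 0.0046). These intervals come from the ranks of the arm sites, with the outside median held fixed. They treat sites of the same libraries as separate, so they do not measure a difference between times.

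**Figure D4:**
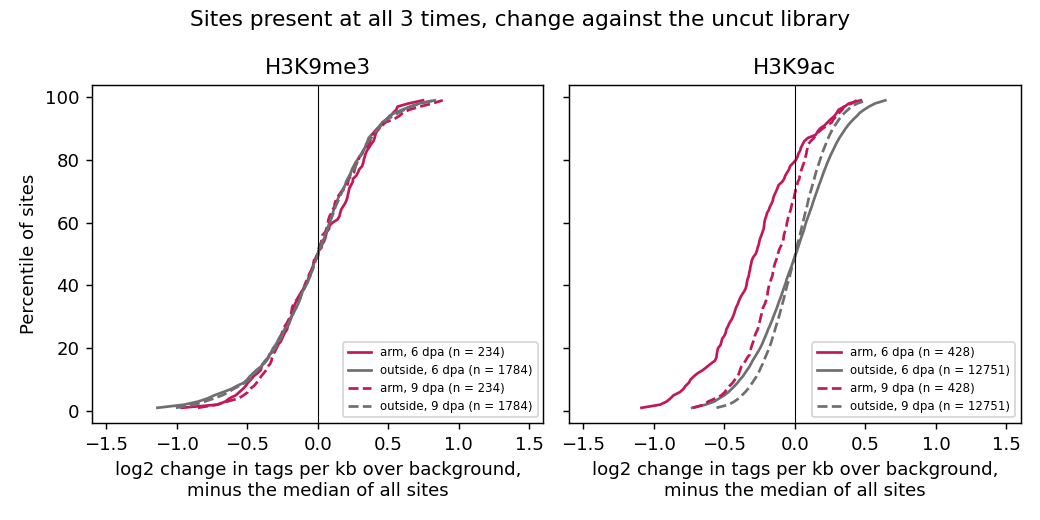
Percentile of sites against log2 change in tags per kb over background, minus the median of all sites, for sites present at all 3 times (H3K9me3 left, H3K9ac right); lines are arm or outside sites at 6 dpa (solid) and 9 dpa (dashed). The H3K9me3 curves lie together, while the arm H3K9ac curve at 6 dpa lies to the left, with a median of -0.28.

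The 3 sites with the lowest relative H3K9ac at 6 dpa, chosen after their values were seen, lay close together in the interior. At chr4:42281086-42282096 tags were 81 in the uncut library, 42 at 6 dpa and 55 at 9 dpa. At chr4:42207469-42208779 the count was 92 in the uncut library and 39 at 6 dpa, and at chr4:42543069-42544212 it was 75 and 34. H3K9me3 tags at the first of these places were 31, 69 and 67 (chr4:42281131-42282044). The lower 6 dpa counts follow from the choice of these sites. A high uncut count also favours the choice, so the lower 9 dpa count at the first place is no separate result. The H3K9me3 tag counts at the first place were higher at both later times. Relative to each library's background they were 9.13, 7.12 and 8.19 times, log2 changes of -0.36 and -0.16 with counting errors of 0.31. The medians of all H3K9me3 sites were -0.58 and -0.56. The direction at this place thus depends on the scaling.

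The lists named 61 genes with a TSS on the arm. An H3K9ac promoter peak was present at 45, 42 and 43 of them, or 73.8%, 68.9% and 70.5%, beside 82.8%, 86.9% and 85.4% of all genes named in the lists. These lists name only genes near a peak, so the shares are of those genes alone. An H3K9ac promoter peak was present at all times at 37 arm genes and at no time at 12. The 37 had a median of 101, 82 and 99 tags. Their median log2 change was 0.25 at 6 dpa and 0.04 at 9 dpa, beside 0.41 and 0.09 over all H3K9ac sites. The latter include sites away from promoters, and a median over promoters outside the arm was not computed. Among the 37, zgc:85944 and zgc:113921 share their peaks.

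Of the 39 genes of the distal part 30, 32 and 30 had an H3K9ac promoter peak, or 76.9%, 82.1% and 76.9%, and 28 had it at all times. With 39 genes these counts do not set the distal part apart from the 82.8%, 86.9% and 85.4% over all genes. Of the 22 genes before 70 Mb 15, 10 and 13 had a peak, or 68.2%, 45.5% and 59.1%, and 9 had it at all times. The distal part has 63.9% of the arm's genes and 66.7%, 76.2% and 69.8% of its acetylated promoters. All 5 arm genes that lost their peak between the uncut and the 6 dpa list lay before 70 Mb.

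LOC560084 had the most enriched H3K9ac promoter of the arm at all times, with a lowest fold enrichment of 17.7 and the tags given above. It was followed by zgc:162958 with a lowest fold of 12.7 and 132, 154 and 148 tags. Next was wu:fb11h05, a zinc finger gene now named znf1059, with 84, 64 and 72 tags. Zinc finger proteins are a large class of DNA-binding proteins.

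Several other acetylated promoters belong to distal genes with a known product. The gene nup50, for a nuclear pore protein, had 160, 174 and 180 H3K9ac tags. The gene pacsin2, for a membrane-shaping protein of endocytosis, had 174, 203 and 184. The gene rab3ip, for an activator of a Rab GTPase in vesicle transport, had 53, 64 and 68. At each of these 3 the tag count was lowest in the uncut library, before any scaling for depth. The other genes among the 15 with the highest lowest-of-3 fold were zgc:113119, zgc:113098 (now znf971), zgc:171551, zgc:153116, zgc:152938, zgc:113209, zgc:165515, zgc:175107 and zgc:162948. Their lowest folds ranged from 8.89 for zgc:162948 to 10.98 for zgc:113119.

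By family, the lists named 7 arm genes whose current symbol is a zinc finger (znf) name. All 7 had an H3K9ac promoter peak in the uncut library, 6 had it at 6 dpa and 7 at 9 dpa. Zinc finger genes known by clone names alone, or not named in the lists, are not counted here. With so few genes these counts do not set the family apart from the 82.8%, 86.9% and 85.4% over all genes. The exception at 6 dpa was zgc:173617 (now znf1137), with 42 and 34 tags in the uncut and 9 dpa libraries, at scores of 55.3 and 50.44. Genes known by clone names alone numbered 32, of which 25, 21 and 23 had an H3K9ac promoter peak and 19 had it at all times. The gene trim24, for a chromatin-binding cofactor, had a peak at all times with 182, 138 and 176 tags, and mir738 had none. Of the 20 remaining genes 12, 14 and 12 had a peak.

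**Figure D5:**
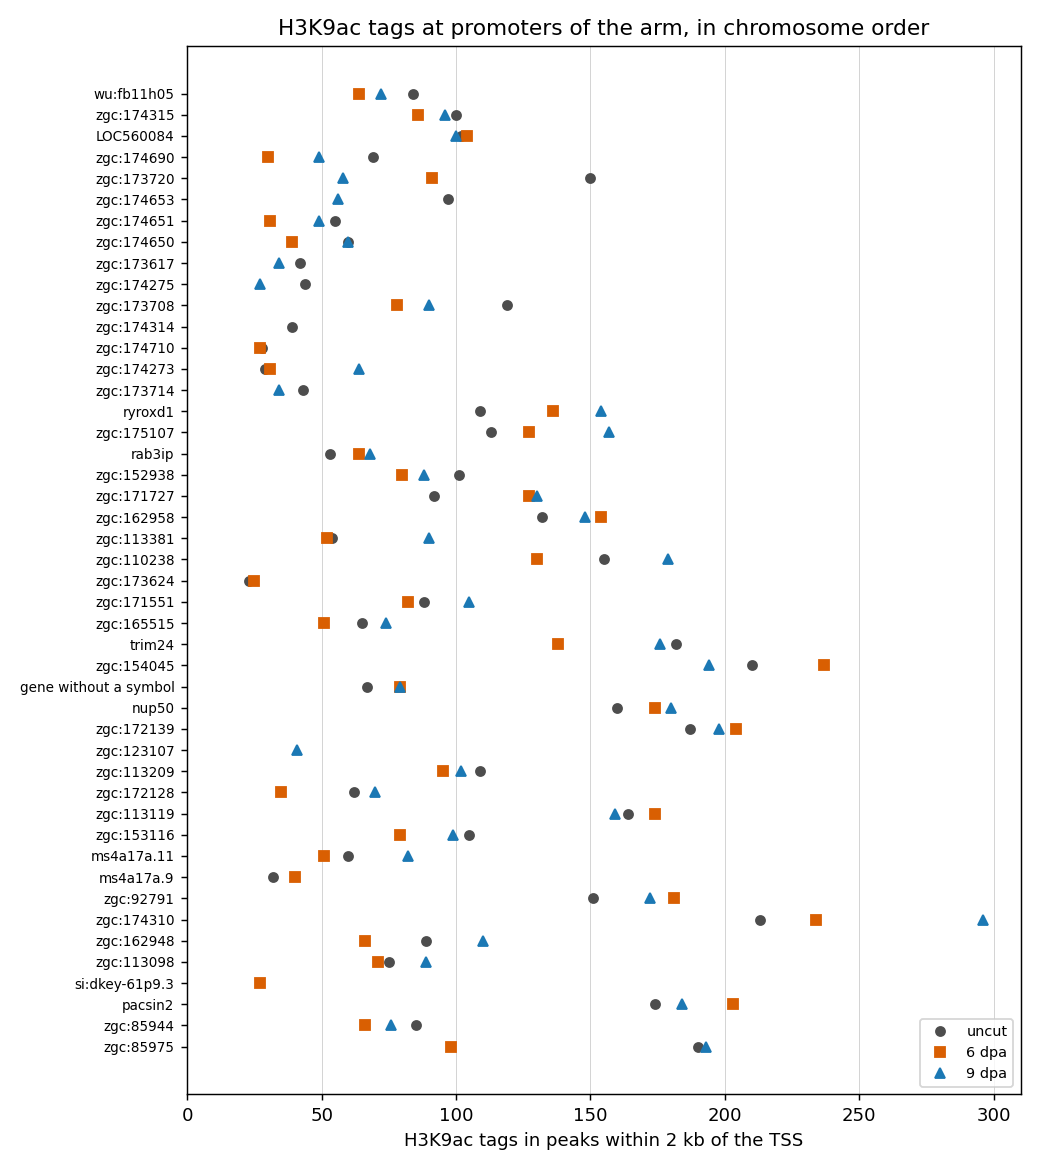
H3K9ac tags in peaks within 2 kb of the TSS for arm genes with such a peak, in order along the chromosome from the border at the top, with circles for uncut, squares for 6 dpa and triangles for 9 dpa; genes that share their peaks are drawn as 1 row. Missing symbols mean no peak in that list; the promoters of the distal part, from ryroxd1 downward, mostly have peaks at all times.

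Changes in presence were few and all between single libraries. At 6 dpa 2 arm genes had an H3K9ac promoter peak that the uncut list lacked, beside 5.95% of all genes; they were si:dkey-61p9.3 and gbp4, which overlap and share a peak of 27 tags. In the opposite direction 5 genes with a peak in the uncut list lacked it at 6 dpa, beside 1.88% of all genes. They were zgc:174653, zgc:173617, zgc:174275, zgc:174314 and zgc:173714, with 97, 42, 44, 39 and 43 uncut tags. At 9 dpa the gained genes were zgc:123107 and hla-dpa1, which share a peak of 41 tags (4.64% over all genes), and 4 were absent (2.06% over all). These 4 were zgc:174314, zgc:174710, zgc:173624 and ms4a17a.9. The gene zgc:174314 was the only arm gene with an H3K9ac promoter peak in the uncut library alone, and no arm gene gained a peak at both later times. Genes named in this paragraph other than zgc:174314 were chosen after their values were seen.

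H3K9me3 lay at the promoters of 8 arm genes in all, 3, 6 and 6 of them by time, beside 1.97%, 4.6% and 1.83% of all genes. Present at all times were LOC560084, given above, mir738, a microRNA gene without an H3K9ac promoter peak, with 34, 78 and 47 tags, and ms4a17a.11, of the four-span membrane protein family, with 21, 41 and 41. The gene terfa, for a protein that binds telomere repeats, had H3K9me3 peaks at 6 and 9 dpa with 23 and 30 tags and no H3K9ac peak within 2 kb of its TSS. At 6 dpa alone a peak was present at zgc:123060, with 71 tags, and at zgc:173617, with 22. At 9 dpa alone it was present at zgc:174944, with 42 tags, and at pacsin2, with 24. In the uncut library 2 of the 3 promoters with H3K9me3 also had H3K9ac, at 6 dpa 2 of 6 and at 9 dpa 3 of 6. The gene zgc:173617 had H3K9ac peaks of 42 and 34 tags in the uncut and 9 dpa libraries and an H3K9me3 peak of 22 tags at 6 dpa. The H3K9ac scores were 55.3 and 50.44 and the H3K9me3 score 55.59, all near the lowest score of 50. Presence and absence there thus rest on the score limit.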

How the data were processed

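Each library was analysed on its own deposited peak list, 1 for each mark and time. The submitters' processing notes name danRer10 as the build and, as tools, DiffBind 1.16.3, MACS 1.4.2 and Bowtie2 2.2.5; what each did and its settings are not given in the sources used here. The authors deposited a tag count per peak, not normalized, per the file headers. The deposited score is 10 times the negative log10 of a peak's p, with 50 as the lowest in the lists, and the deposited fold enrichment is a ratio to the caller's background, per the file headers; both served only to describe, rank or filter peaks within a list. Rows repeated for several transcripts were reduced to unique peaks.

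Each library's background in reads per kb was the most frequent local density that the Poisson distribution gives from a peak's tags, width and score. Overlap meant at least 1 bp, and counts equalled those of bedtools 2.31.1. Promoters were within 2 kb of a TSS named in the lists. Shares have Wilson 95% intervals and differences of shares Newcombe 95% intervals, for counting error only. A background-scaled log2 change has a counting error from both tag counts. Intervals of median log2 changes come from the ranks of the arm sites, with any outside median held fixed. Python 3.11.15, numpy 2.4.6, pandas 2.3.3 and scipy 1.17.1 were used, and the computations were tested on simulated data. Gene names were matched to the NCBI table of the GRCz12tu assembly, 52 of 60 gene IDs with 16 renamed; no coordinate was taken from it.

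Named peaks were, per list, the 3 with the highest fold enrichment at a score of at least 100; per mark, the 5 constant sites with the highest lowest-of-3 fold; the 5 widest sites with both marks at all times; the peaks at the border; and the widest gaps. Not all are described. Named genes were the 15 with the highest lowest-of-3 H3K9ac fold, those with H3K9ac in the uncut list alone or in both later lists and not the uncut list, and all with H3K9me3. The members, lists and rules were chosen with earlier results of these data known; zones and splits by enrichment or score class were drawn after seeing values. Sequences are not used here. Alternatives were other borders, score, list length, overlap, window, scaling and unit of density, and leaving out promoter peaks.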

Additional observations from a re-analysis of the deposited data

How the results depend on the processing

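With 1 library per mark and time, no replicate could be left out. No paired analysis was possible because the groups share only replicate number 1. Of the alternative values 243 were classed as the same, 76 moved and 15 reversed. The same meant within the counting interval of the reported value or, for counts of genes, within a fixed ratio of it. Some of the 243 could not move. Lists of equal length leave the uncut lists unchanged, and scaling by 1 factor per library cancels in arm minus outside differences. The cause was not tested unless the alternative itself shows it. All H3K9me3 density ratios stayed above 1. Under every alternative run, uncut H3K9ac peaks recurred less often on the arm than outside, by -24.9 to -12.6 points at 6 dpa and -18.6 to -9.97 at 9 dpa, and arm H3K9ac peaks met H3K9me3 more often, by 5.50 to 12.4, 18.4 to 25.8 and 10.7 to 19.5 points.

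At a score of at least 100, the H3K9ac density ratio was 0.907, 0.674 and 0.800 and the arm's share of H3K9ac peaks 3.25%, 2.43% and 2.88%; for uncut H3K9me3 the ratio was 3.82 and the share 12.4%. The promoter share of arm H3K9ac peaks was then 9.40%, 10.96% and 9.79%, and genes with an H3K9me3 promoter peak numbered 2 at 6 dpa and 2 at 9 dpa. The excess of uncut H3K9me3 recurrence turned to -2.78 points at 6 dpa and -6.92 at 9 dpa. Recurrence of H3K9me3 was 46.9% for 6 dpa in uncut, 58.4% for 6 dpa in 9 dpa, 53.8% for 9 dpa in uncut and 75.6% for 9 dpa in 6 dpa. For H3K9ac it was 77.8% for uncut in 9 dpa, 80.8% and 81.5% for 6 dpa in uncut and 9 dpa, and 81.01% and 70.6% for 9 dpa in uncut and 6 dpa. Arm H3K9ac peaks with H3K9me3 were 13.1%, 25% and 20.2%, above the outside by 8.81, 19.3 and 14.6 points. H3K9me3 peaks with H3K9ac were 43.1% at 9 dpa, and in the uncut library the arm minus outside difference was -11.9 points. The median log2 change of arm H3K9ac was 0.20 at 6 dpa and 0.012 at 9 dpa, and that of H3K9me3 on the arm minus outside -0.026 at 6 dpa.

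With lists of equal length the H3K9ac density ratio at 6 dpa was 0.948. Recurrence of H3K9me3 was then 57.9% for uncut in 6 dpa, 47.9% and 58.4% for 6 dpa in uncut and 9 dpa, and 61.4% for 9 dpa in 6 dpa. For H3K9ac it was 60.1% and 68.2% for uncut in 6 and 9 dpa, 79.7% and 78.2% for 6 dpa in uncut and 9 dpa, and 78.9% for 9 dpa in uncut. With summits within 500 bp, recurrence of H3K9me3 was 56.3% and 53.98% for uncut peaks, 35.8% and 45.96% for 6 dpa peaks, and 44.7% and 59.9% for 9 dpa peaks. For H3K9ac it was 60.8% and 67.4%, 70.2% and 69.7%, and 69.5% and 62.2%. Uncut H3K9me3 peaks with H3K9ac were 26.4%, and H3K9ac peaks with H3K9me3 16.6% in uncut and 34.4% at 6 dpa, as a stricter match lowers all shares. With promoter peaks left out of both lists, a choice made after seeing the data, the arm minus outside difference was -12.6 and -9.97 points for uncut H3K9ac recurrence and 5.50, 18.4 and 10.7 points for H3K9ac with H3K9me3.

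Counted by covered bases the density ratio was 3.61 for uncut H3K9me3 and 1.04, 0.809 and 0.920 for H3K9ac, whose arm peaks are narrower. Against chromosome 4 before the border it was 4.06, 4.49 and 4.63 for H3K9me3, and 0.964 and 1.08 for H3K9ac at 6 and 9 dpa. With the arm from 35 Mb its share was 9.27%, 10.2% and 10.5% for H3K9me3 and 3.91%, 3.19% and 3.61% for H3K9ac, since fewer peaks are counted. A promoter window of 5 kb gave 6 genes with H3K9me3 in the uncut library and 12 at 6 dpa. Scaled to peaks outside the arm, the arm median log2 changes were 0.094 and 0.0038 for H3K9me3 and -0.16 and -0.063 for H3K9ac. Also added after seeing the data, tags without width gave an arm median of -0.68 for H3K9me3 at 9 dpa. The arm minus outside differences were then -0.053 and -0.11 (-0.19 to -0.054) for H3K9me3 and -0.37 and -0.18 for H3K9ac. The interval is from the ranks of arm sites, not from counting error.

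Depth limits the comparison of lists: a missing peak is one under the lowest score, not an absent mark, and the H3K9me3 libraries differed in background from 4.10 to 10.83 reads per kb.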

Other observations

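A few transcripts of the arm are very long. The 8 transcripts of at least 100 kb named in the lists, among them zgc:174650 at 832 kb and zgc:174698 at 746 kb, cover 3517.5 kb together. The arm spans 47.8 Mb. These transcripts held 45, 62 and 59 arm H3K9me3 peaks (9.68%, 8.48% and 10.5%) and 53, 45 and 52 arm H3K9ac peaks (7.17%, 7.03% and 7.25%). Part of these shares follows from the length covered, and no excess over it was tested.

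Arm H3K9me3 peaks that met an H3K9ac peak of the same time were larger than those that did not, with a median of 46, 61.5 and 54 tags against 22, 31 and 27.5. Outside the arm the medians were 35, 53 and 51 against 19, 30 and 28. For arm H3K9ac peaks the medians with and without H3K9me3 were close, at 59, 46 and 55 against 55, 48 and 57 tags.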
